A study of Homo sapiens with 12 samples.

Results

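The high mobility group (HMG) proteins are small, abundant non-histone chromatin proteins. The 8 genes described here were picked by name from the deposited expression table of 58735 genes: HMGB1, HMGB2 and HMGB3 of the HMG-box class, HMGN1, HMGN2 and HMGN3 of the nucleosome-binding class, and HMGA1 and HMGA2 of the AT-hook class. All 8 reached the level needed for testing, a mean of at least 1 FPKM (fragments scaled by transcript length and library depth) over the 12 libraries, as did 13609 genes in all. The set was put together with a lower HMGB2 after radiation already known, so radiation against control is given below as a description without a test. Earlier results of all 4 groups were known as well, so no test below is independent of the choice of members.

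The cells were TFK1, an established human cholangiocarcinoma (bile duct cancer) line labelled as wild type. The 4 groups, each of 3 libraries labelled as biological replicates, were cells given 6 Gy of radiation together with nab-paclitaxel at 1.62 ng/ml (the combination), cells given radiation alone, cells given nab-paclitaxel alone, and untreated control cells, all harvested at 24 h. Nab-paclitaxel is an albumin-bound form of paclitaxel, a drug that stabilises microtubules. The study asked how this drug makes such cells more sensitive to radiation, and only 1 line and 1 time point were measured.

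HMGB proteins carry a pair of HMG-box domains that bend DNA, and HMGB1 also acts outside the cell as an alarm signal when cells are stressed or die. HMGN proteins bind the nucleosome core and compete with linker histone H1, which loosens compact chromatin. HMGA proteins hold the minor groove of AT-rich DNA through short AT-hook motifs, are plentiful in embryonic tissue and are often expressed again in carcinomas, bile duct cancer among them.

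The sequences before the starts of these genes are shown first, because HMGB1, HMGB2, HMGB3 and HMGN2 all rose in the combination against radiation alone, as given below. RefSeq (GRCh38.p14) gave start sites for 6 of the 8 members, with 10 windows of 250 bases before a start. HMGB2 and HMGA2 are named only. The pentamer CCAAT, the core of the box bound by the factor NF-Y, was searched on both strands. It is in capitals below, as CCAAT or as its reverse complement ATTGG. HMGB1 (chr13:30465937-30466186, minus strand) and HMGB3 (chrX:150983085-150983334, plus strand) each held it at 3 places, HMGN2 (chr1:26472190-26472439, plus strand) at 1 and HMGN3 (chr6:79234683-79234932, minus strand) at 2.
HMGB1: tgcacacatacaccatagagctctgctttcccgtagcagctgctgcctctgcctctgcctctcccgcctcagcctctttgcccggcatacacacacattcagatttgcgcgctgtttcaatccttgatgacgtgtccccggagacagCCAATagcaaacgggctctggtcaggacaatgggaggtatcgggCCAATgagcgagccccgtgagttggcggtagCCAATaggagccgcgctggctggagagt
HMGB3: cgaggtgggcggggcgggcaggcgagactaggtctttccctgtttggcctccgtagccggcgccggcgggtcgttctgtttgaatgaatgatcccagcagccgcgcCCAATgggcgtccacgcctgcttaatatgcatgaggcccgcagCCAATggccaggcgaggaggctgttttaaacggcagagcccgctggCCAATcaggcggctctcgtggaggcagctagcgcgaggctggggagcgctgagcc
HMGN2: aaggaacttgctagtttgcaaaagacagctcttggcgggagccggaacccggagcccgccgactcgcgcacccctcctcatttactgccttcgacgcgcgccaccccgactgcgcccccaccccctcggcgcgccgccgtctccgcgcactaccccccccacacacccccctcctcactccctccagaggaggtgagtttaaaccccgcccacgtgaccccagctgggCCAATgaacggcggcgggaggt
HMGN3: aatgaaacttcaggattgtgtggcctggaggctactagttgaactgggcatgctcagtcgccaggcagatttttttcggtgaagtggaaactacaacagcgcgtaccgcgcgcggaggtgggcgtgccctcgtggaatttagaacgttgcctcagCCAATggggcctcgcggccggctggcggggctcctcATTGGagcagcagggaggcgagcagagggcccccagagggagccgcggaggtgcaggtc
In HMGB1 the boxes began 103, 59 and 28 bases before the start, and in HMGB3 144, 101 and 55 bases before it. HMGN1, not printed, held 2. Among 35116 such RefSeq windows, 32.01% held the pentamer and 2.927% held it at 3 or more places. HMGN1 and HMGN3, which passed in no tested comparison, hold it too. HMGB2 and HMGA2 have no window, so its presence was not set against the response over the 8 members. The HMGB1 and HMGB3 windows shown are the first of 3 and of 2. The second HMGB1 window held the pentamer at 1 place and its last window at 0, the other HMGB3 window at 0, and the 2 HMGA1 windows at 0 and 1. A search for 4 eight-base E2F-type motifs (TTTGGCGC, TTTCCCGC, TTTCGCGC and TTTGCCGC, both strands) found 0 in the 10 windows, against 2.788% of all windows with at least 1. A match or its lack says only what letters stand in these windows.

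The libraries held 14840283 to 17992242 fragments. Of 10 biliary epithelial markers 7 reached 1 FPKM, led by the keratin KRT19 at a mean of 418.7 FPKM. Their sum was 1349 to 1707 FPKM in the combination, 1107 to 1184 FPKM after radiation, 1187 to 1336 FPKM with nab-paclitaxel and 720.3 to 907.1 FPKM in control, and its part in the HMG results was not tested. Markers of macrophages (0 of 10), lymphocytes (0 of 6) and endothelium (0 of 4) stayed under 1 FPKM, and 1 of 8 fibroblast markers passed it (COL1A1, 5.70 FPKM). Control 2, nab-paclitaxel 1 and combination 2 stood apart from the other libraries of their groups in a shared way: their deviations correlated across the tested genes, with r between 0.332 and 0.543. Values without them are given beside the results they move. The 3 were singled out from these same data, so leaving them out narrows the spread within groups. Genes called in the limma fit described below then rose from 1055 to 4128 in the combination against radiation and from 3111 to 5049 against control. They rose from 533 to 1301 against nab-paclitaxel, and from 1200 to 1836 with nab-paclitaxel against control. A call that held or appeared without these libraries is therefore no added support. In such bulk libraries, fewer cells of a state and less RNA per cell cannot be told apart.

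**Figure D1:**
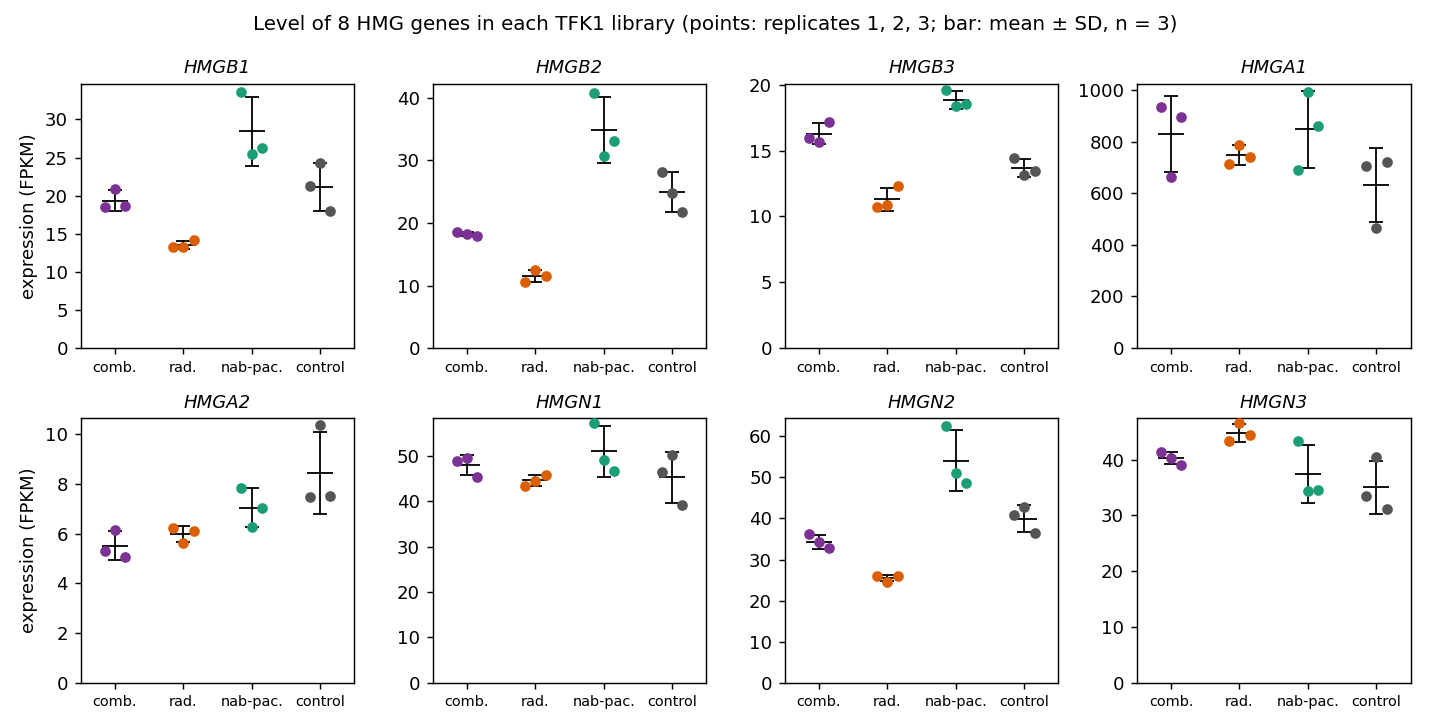
Expression of the 8 HMG genes (FPKM, linear axis from 0) in the combination, radiation, nab-paclitaxel and control groups, left to right; points are libraries 1 to 3 and bars are the mean ± SD. HMGB1, HMGB2, HMGB3 and HMGN2 were lowest in the radiation group and highest with nab-paclitaxel, while HMGA1 was far more abundant than the others.

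Levels per length spanned a wide range. HMGA1 averaged 763.6 FPKM over the 12 libraries, position 29 among the tested genes. HMGN1 (47.2 FPKM), HMGN3 (39.4 FPKM) and HMGN2 (38.5 FPKM) followed, then HMGB2 (22.4 FPKM), HMGB1 (20.6 FPKM) and HMGB3 (15.03 FPKM), with HMGA2 lowest at 6.75 FPKM. The 3 HMGN genes changed places between groups, with HMGN2 first with nab-paclitaxel and HMGN3 first after radiation, as did HMGB2 and HMGB1, so the order within those classes does not hold in every group. The deposited length of a gene covers untranslated parts as well (15403 bases for HMGA2, 7723 for HMGB1, 1014 for HMGN3), so levels of different members depend on it.

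Across the set, HMGB2, HMGN2 and HMGB1 fell in the combination against nab-paclitaxel alone, a comparison that has no library in common with radiation against control. That is 3 of 8 members, where 2.7% of all tested genes fell and 3.92% changed either way (limma on log2(FPKM + 1), Benjamini-Hochberg adjusted p under 0.05). With nab-paclitaxel alone against control 3 of 8 rose (HMGB3, HMGN2 and HMGB2), where 5.41% of all genes rose and 8.82% changed. In the combination against radiation alone 4 of 8 rose (HMGB3, HMGB2, HMGN2 and HMGB1), where 4.81% of all genes rose and 7.75% changed. In the combination against control HMGB3 rose and HMGB2 and HMGA2 fell, 3 of 8, where 22.9% of all genes changed, 12.2% higher and 10.6% lower. No member passed in the interaction, in which 0 of 13609 genes were called by limma (443 at an unadjusted p under 0.05) and 0 by voom on recovered fragments (368). Comparisons that share a group share its libraries, so their counts are not independent. Comparisons with the radiation group draw on the same low HMGB2 values that were known when the set was chosen, which favours a rise against them. Values after ± are SD for FPKM and SE of the fit for log2 fold changes on log2(FPKM + 1), with n = 3 libraries a group, and p-values measure the spread between these libraries.

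Radiation alone against control, the comparison known when the set was chosen, had 6 of 8 members with no overlap between the groups, 5 lower and 1 higher. Over all tested genes 28.4% did not overlap, 16% lower and 12.4% higher. The lower members were HMGB2 (-1.04 ± 0.12), HMGN2 (-0.63 ± 0.10), HMGB1 (-0.60 ± 0.12), HMGA2 (-0.42 ± 0.12) and HMGB3 (-0.26 ± 0.08), and the higher one was HMGN3 (0.35 ± 0.11). HMGA1 (0.27 ± 0.19, and 0.06 without control 2) and HMGN1 (-0.01 ± 0.10) overlapped.

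**Figure D2:**
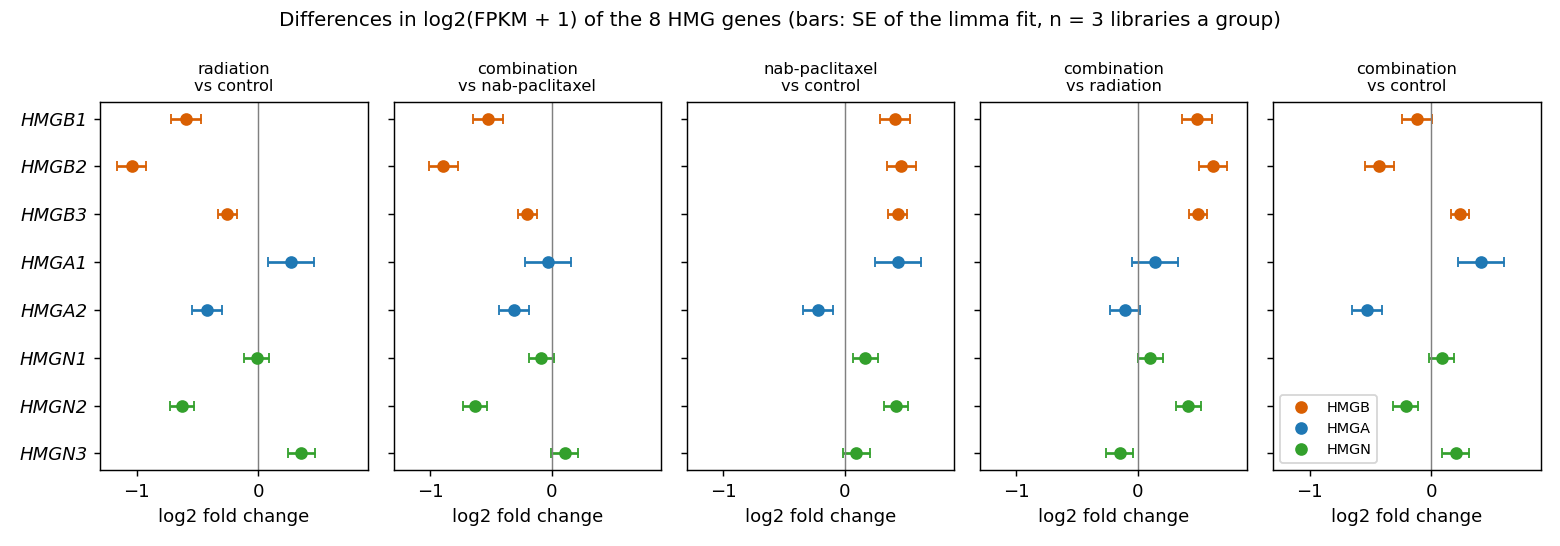
Log2 fold change on log2(FPKM + 1) of each HMG gene in 5 comparisons, with bars for the SE of the limma fit; colours mark the HMGB, HMGA and HMGN classes. HMGB2 lies farthest to the left in both radiation comparisons (-1.04 and -0.89), and the 3 HMGB genes and HMGN2 lie between 0.41 and 0.62 in both nab-paclitaxel comparisons.

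HMGB2 (ENSG00000164104, hg38 chr4:173331695-173335125, minus strand) encodes an HMG-box protein abundant in dividing cells. It had 18.6, 18.2 and 17.9 FPKM in the combination, 10.5, 12.6 and 11.5 FPKM after radiation, 40.8, 30.7 and 33.1 FPKM with nab-paclitaxel, and 28.2, 24.7 and 21.8 FPKM in control. Every combination library lay below every nab-paclitaxel library and above every radiation library. HMGB2 fell in the combination against nab-paclitaxel (-0.89 ± 0.12, adjusted p = 0.00249), to 18.2 ± 0.341 FPKM, against 34.8 ± 5.27 FPKM with nab-paclitaxel. This call held in all 27 alternative analyses, and without control 2, nab-paclitaxel 1 and combination 2 the difference was -0.77 (adjusted p = 0.00704).

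With the drug HMGB2 was higher. It rose with nab-paclitaxel alone against control (0.46 ± 0.12, adjusted p = 0.0347) and in the combination against radiation (0.62 ± 0.12, adjusted p = 0.0122), with no overlap in either. The combination still ended below control (-0.43 ± 0.12, adjusted p = 0.0234). The first of these 3 calls was lost without any 1 of 9 libraries (combination 1 or 3, any radiation library, nab-paclitaxel 1 or 3, control 2 or 3; adjusted p = 0.0510 to 0.109). The second was lost without combination 3, radiation 1 or radiation 3 (adjusted p = 0.0505 to 0.0680). The call against control was lost without any combination library or control 1 (adjusted p = 0.0527 to 0.0845). Without control 2, nab-paclitaxel 1 and combination 2 together, the first was 0.35 (adjusted p = 0.0880) and the other 2 held. Each of these fits had fewer libraries, and the direction stayed the same in all of them. With all 12 libraries the first call was also lost with no filter on low genes (adjusted p = 0.0869) and quantile normalization (adjusted p = 0.104). The replicate block (adjusted p = 0.0560) and summing named pseudogenes (adjusted p = 0.0557) lost it too, as did fitting only those 2 groups (adjusted p = 0.196). It was lost in 15 of 27 alternatives. The call against control was also lost with no filter (adjusted p = 0.0588).

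HMGB1 (ENSG00000189403, hg38 chr13:30456704-30617597, minus strand), the DNA-bending protein that doubles as an alarm signal, had the directions of HMGB2. It had 18.5, 20.9 and 18.6 FPKM in the combination, 13.2, 13.2 and 14.2 FPKM after radiation, 33.7, 25.5 and 26.2 FPKM with nab-paclitaxel, and 21.2, 24.2 and 18.0 FPKM in control. The radiation group lay below the other 3 groups, and the combination overlapped control. HMGB1 fell in the combination against nab-paclitaxel (-0.53 ± 0.12, adjusted p = 0.0390) and rose in the combination against radiation (0.48 ± 0.12, adjusted p = 0.0373).

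Both HMGB1 calls depended on single libraries. The fall was lost without any 1 of 10 libraries (all but control 2 and control 3; adjusted p = 0.0505 to 0.140), and the rise without any combination or radiation library or control 1 (adjusted p = 0.0513 to 0.130). Without control 2, nab-paclitaxel 1 and combination 2 together both passed, at -0.46 (adjusted p = 0.0106) and 0.43 (adjusted p = 0.00399). That choice of libraries narrows the spread, so it adds no support. Nab-paclitaxel alone against control missed the threshold (0.41 ± 0.12, adjusted p = 0.0593) although the 2 groups did not overlap. It passed in 9 of 27 alternatives, without control 2 (0.51, adjusted p = 0.0368) among them, with adjusted p from 0.00140 to 0.241 over the 27. The combination against control was at -0.11 ± 0.12 (-0.01 without control 2; adjusted p = 0.543, 95% interval -0.38 to 0.16).

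HMGB3 (ENSG00000029993, hg38 chrX:150980509-150990775, plus strand), which encodes an HMG-box protein of stem and progenitor cells, was higher wherever nab-paclitaxel was given. It had 15.99, 15.7 and 17.2 FPKM in the combination, 10.7, 10.9 and 12.3 FPKM after radiation, 19.6, 18.4 and 18.6 FPKM with nab-paclitaxel, and 14.4, 13.1 and 13.4 FPKM in control. All 4 groups were clear of each other, in the order radiation, control, combination and nab-paclitaxel. HMGB3 rose with nab-paclitaxel against control (0.44 ± 0.08, adjusted p = 0.00956) and in the combination against radiation (0.49 ± 0.08, adjusted p = 0.00538), and both calls held when any 1 library was left out. Both were lost when the FPKM of the 29 named HMGB3 pseudogenes were added to its value (0.24, adjusted p = 0.107, and 0.31, adjusted p = 0.0540). Such a sum gives short pseudogenes more weight than their fragments have. The pseudogenes held 310 fragments against 11945 for HMGB3 (2.53% of both), but 2.665 FPKM against 15.03 FPKM. A sum of fragments was not tested.

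For radiation with the drug present, HMGB3 did not pass. The combination against nab-paclitaxel gave -0.20 ± 0.08 (adjusted p = 0.201, 95% interval -0.37 to -0.03), without overlap. The combination rose above control (0.24 ± 0.08, adjusted p = 0.0458), a call lost without any 1 of 11 libraries (all but nab-paclitaxel 1; adjusted p = 0.0512 to 0.164). It was also lost with the replicate number as a block (adjusted p = 0.0694).

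Of the nucleosome-binding members, HMGN2 (ENSG00000198830, hg38 chr1:26472450-26475972, plus strand) moved in the directions of HMGB2. It had 36.2, 34.2 and 32.8 FPKM in the combination, 26.0, 24.5 and 26.0 FPKM after radiation, 62.5, 50.9 and 48.6 FPKM with nab-paclitaxel, and 40.8, 42.8 and 36.4 FPKM in control. Nab-paclitaxel was highest and radiation lowest, with no overlap of any pair of groups. HMGN2 fell in the combination against nab-paclitaxel (-0.63 ± 0.10, adjusted p = 0.00648), a call that held without any 1 library and was lost when only those 2 groups were fitted (adjusted p = 0.0758).

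HMGN2 rose with nab-paclitaxel alone (0.42 ± 0.10, adjusted p = 0.0288) and in the combination against radiation (0.42 ± 0.10, adjusted p = 0.0314). The first rise was lost without radiation 1, nab-paclitaxel 1 or 2, or control 1 or 3 (adjusted p = 0.0501 to 0.0914), and the second without any combination or radiation library (adjusted p = 0.0646 to 0.115). Quantile normalization moved them to 0.24 (adjusted p = 0.0914) and 0.26 (adjusted p = 0.0798), and both were also lost with no filter on low genes (adjusted p = 0.0631 and 0.0644). Without control 2, nab-paclitaxel 1 and combination 2 together both passed, at 0.36 (adjusted p = 0.0173) and 0.42 (adjusted p = 0.00342). The fall against nab-paclitaxel was then -0.52 (adjusted p = 0.00476). This choice of libraries narrows the spread, so it adds no support. The combination against control was at -0.21 ± 0.10 (adjusted p = 0.152).

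HMGN1 (ENSG00000205581, hg38 chr21:39342315-39349647, minus strand), which also acts in the repair of damage in chromatin, passed in none of the tested comparisons. It had 48.9, 49.5 and 45.4 FPKM in the combination, 43.4, 44.6 and 45.9 FPKM after radiation, 57.4, 49.0 and 46.6 FPKM with nab-paclitaxel, and 46.5, 50.2 and 39.2 FPKM in control. All groups overlapped with control. Its differences in the 4 tested comparisons ran between -0.08 and 0.17, and for the combination against nab-paclitaxel the 95% interval was -0.31 to 0.14.

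HMGN3 (ENSG00000118418, hg38 chr6:79201245-79234738, minus strand), known in the mouse for a role in pancreatic islet cells, had its highest group mean after radiation. It had 41.3, 40.3 and 39.1 FPKM in the combination, 43.4, 46.6 and 44.4 FPKM after radiation, 43.4, 34.4 and 34.6 FPKM with nab-paclitaxel, and 33.5, 40.4 and 31.2 FPKM in control. The higher level after radiation did not recur past the threshold with the drug present, where the combination against nab-paclitaxel gave 0.11 ± 0.11 (adjusted p = 0.697, 95% interval -0.13 to 0.35). Against control, HMGN3 in the combination was at 0.20 ± 0.11 (adjusted p = 0.208). Without control 2, nab-paclitaxel 1 and combination 2 together that difference was 0.31 (adjusted p = 0.00436), and without control 2 alone 0.31 (adjusted p = 0.0527).

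HMGA1 (ENSG00000137309, hg38 chr6:34236873-34246231, plus strand), an architectural factor that opens chromatin and is raised in many carcinomas, had 933, 663 and 896 FPKM in the combination. After radiation it had 712, 787 and 741 FPKM, with nab-paclitaxel 690, 990 and 861 FPKM, and in control 704, 465 and 722 FPKM. In the combination, nab-paclitaxel and control groups 1 library lay far under the other 2, and no pair of groups was clear of each other. HMGA1 passed in no tested comparison. Nab-paclitaxel against control gave 0.44 ± 0.19 (adjusted p = 0.168), the combination against control 0.41 ± 0.19 (adjusted p = 0.145), the combination against radiation 0.14 ± 0.19 (adjusted p = 0.695), and the combination against nab-paclitaxel -0.03 ± 0.19 (adjusted p = 0.969, 95% interval -0.45 to 0.39).

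The low HMGA1 libraries were combination 2, nab-paclitaxel 1 and control 2, at -0.31, -0.28 and -0.41 from their group means on the log2 scale. Those 3 libraries were also low in GC-rich genes. The median deviation of the GC-rich genes (over 56.4% GC) minus that of the GC-poor genes (under 42.0%) was -0.291, -0.278 and -0.443 in them and between -0.0567 and 0.260 in the other 9. The longest HMGA1 transcript has 61.3% GC, more than 89.2% of tested genes. Without control 2 alone HMGA1 was at 0.23 with nab-paclitaxel against control (adjusted p = 0.406) and at 0.20 in the combination against control (adjusted p = 0.415). Without those 3 libraries HMGA1 was higher with nab-paclitaxel than in control by 0.37 (adjusted p = 0.0207), in the combination than in control by 0.36 (adjusted p = 0.00881) and in the combination than after radiation by 0.29 (adjusted p = 0.0183). Leaving out those 3 narrows the spread by choice, so these p-values are no support for a rise. After centring each library by GC content, an adjustment chosen after seeing the data, the first and second were 0.37 (adjusted p = 0.0372) and 0.38 (adjusted p = 0.0202), and the last 0.11 (adjusted p = 0.492). That centring also raised calls over all genes in these comparisons, so its p-values are no support for a rise either.

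**Figure D3:**
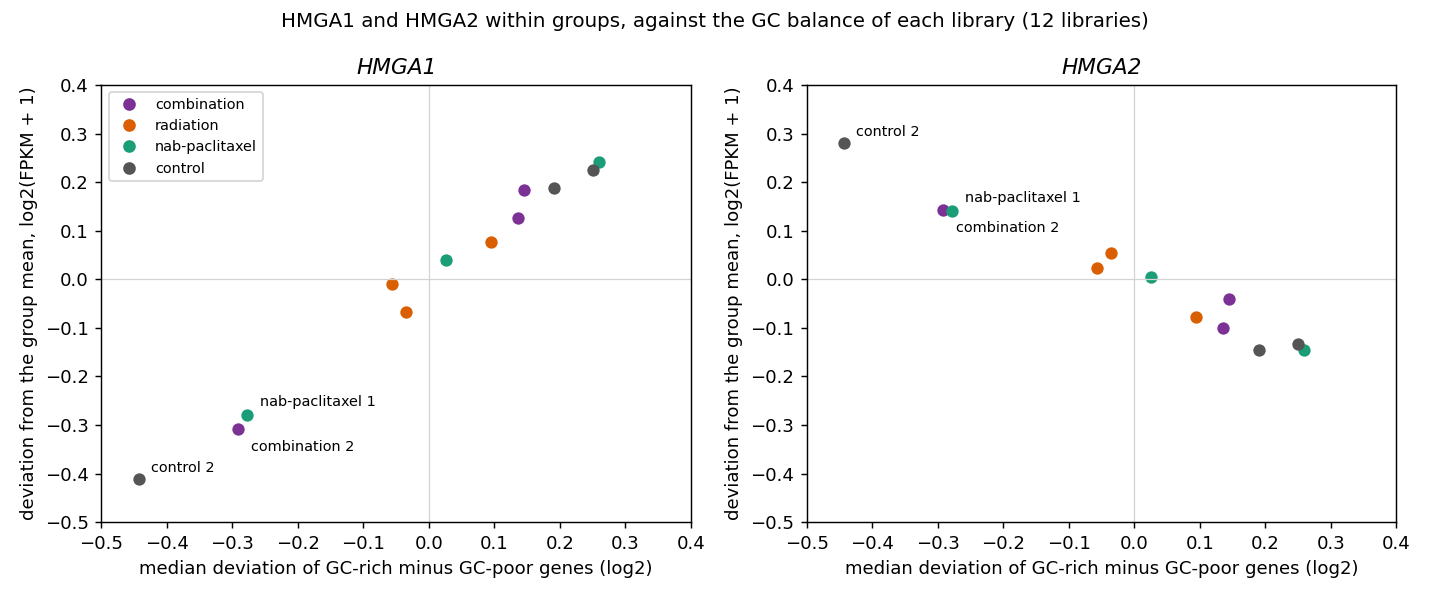
Deviation of HMGA1 (left) and HMGA2 (right) from the mean of its group in each of 12 libraries, against the GC balance of that library (median deviation of GC-rich minus GC-poor genes); both axes are log2. Control 2, nab-paclitaxel 1 and combination 2 are lowest of their groups for HMGA1 (-0.41, -0.28 and -0.31) and highest for HMGA2 (0.28, 0.14 and 0.14).

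HMGA2 (ENSG00000149948, hg38 chr12:65824131-65966295, plus strand), the fetal AT-hook gene whose messenger RNA is a classic target of the let-7 microRNAs, had the lowest difference of the 8 members in the combination against control. It had 5.31, 6.17 and 5.06 FPKM in the combination, 6.25, 5.62 and 6.10 FPKM after radiation, 7.85, 6.26 and 7.05 FPKM with nab-paclitaxel, and 7.46, 10.4 and 7.53 FPKM in control. Every combination library lay under every control and every nab-paclitaxel library. The fall in the combination against control was -0.53 ± 0.12 (adjusted p = 0.0106) and held in all 27 alternative analyses. Without control 2, its highest library, it was -0.39 (adjusted p = 0.0222), and the highest adjusted p over the alternatives was 0.0479.

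Against nab-paclitaxel alone the combination was at -0.31 ± 0.12 (adjusted p = 0.221), and nab-paclitaxel against control gave -0.22 ± 0.12 (adjusted p = 0.278). Without control 2 the drug difference was -0.08 (adjusted p = 0.635). Without control 2, nab-paclitaxel 1 and combination 2 together it was -0.15 (adjusted p = 0.202), and the combination against nab-paclitaxel -0.31 (adjusted p = 0.0370). The longest HMGA2 transcript has 38.8% GC, and HMGA2 deviated in the direction opposite to HMGA1 in the libraries that stood apart. After centring by GC content the control libraries lay at 7.97, 8.51 and 8.09 FPKM and the combination libraries at 5.68, 5.47 and 5.55 FPKM. With that centring the combination against nab-paclitaxel gave -0.29 (adjusted p = 0.00282), and nab-paclitaxel against control -0.20 (adjusted p = 0.0145). The centring was chosen after seeing the data and raised calls over all genes from 533 to 1625 and from 1200 to 3038. These 2 p-values are therefore no support for a fall.

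**Figure D4:**
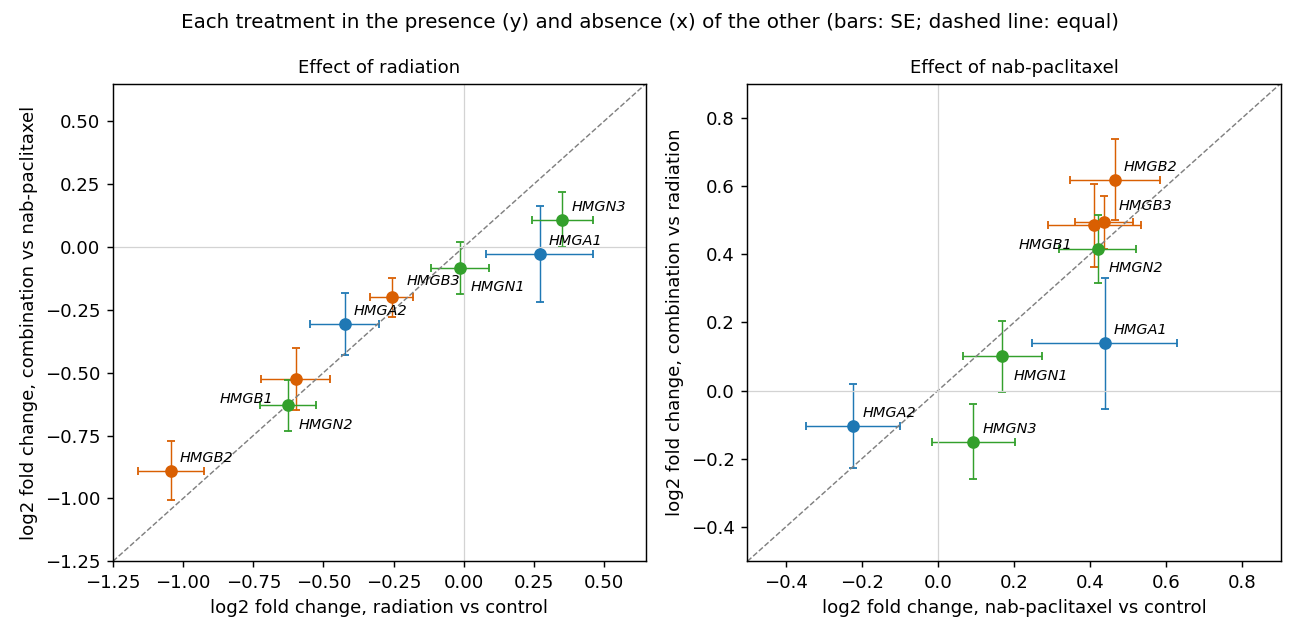
Log2 fold change of each HMG gene for radiation (left) and nab-paclitaxel (right), with the other treatment present (vertical axis) and absent (horizontal axis); bars are the SE and the dashed line marks equal values. In each panel 7 of 8 genes have the same sign on both axes, a count not made over all tested genes. The exceptions are HMGA1 for radiation and HMGN3 for the drug. For HMGN1 the sign of radiation without the drug turned in 9 of 27 alternatives. TPM scaling, median-of-ratios scaling over the tested genes and quantile normalization were among them.

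Each treatment was measured in 2 separate sets of 6 libraries, with and without the other treatment. The share of all tested genes that kept their sign was not computed. The counts of members below therefore have no background and are not a trait of this set. The radiation difference with the drug present had the same sign as without it in 7 of 8 members, HMGA1 being the exception (-0.03 ± 0.19 with the drug, 0.27 ± 0.19 without). HMGN1 counts among the 7 at -0.01 ± 0.10 without the drug, a sign that turned in 9 of 27 alternatives. Scaling to TPM (0.0027), median-of-ratios scaling over the tested genes (0.0093), quantile normalization (0.069) and GC centring (0.027) were among them. For HMGB2 it was -0.89 ± 0.12 with the drug and -1.04 ± 0.12 without, and for HMGN2 -0.63 ± 0.10 and -0.63 ± 0.10. The drug difference with radiation had the same sign as without it in 7 of 8 members, HMGN3 being the exception (-0.15 ± 0.11 with radiation, 0.09 ± 0.11 without). For HMGB3 it was 0.49 ± 0.08 with radiation and 0.44 ± 0.08 without. The interaction passed for no member and had 95% intervals of -0.21 to 0.52 for HMGB2, -0.31 to 0.31 for HMGN2 and -0.89 to 0.29 for HMGA1.

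Summed by class, HMGB genes had 53.9 ± 0.867 FPKM in the combination, 36.4 ± 1.81 FPKM after radiation, 82.1 ± 10.4 FPKM with nab-paclitaxel and 59.7 ± 5.70 FPKM in control. HMGN genes had 122.6 ± 4.68, 114.9 ± 1.86, 142.5 ± 18.1 and 120.3 ± 13.2 FPKM in the same groups. The ratio of HMGB to HMGN was 0.440 ± 0.0190 in the combination, 0.316 ± 0.0109 after radiation, 0.577 ± 0.0223 with nab-paclitaxel and 0.498 ± 0.0316 in control, and it was lowest in the 3 radiation libraries. HMGB2 made up 33.8 ± 1.02% of the HMGB sum in the combination and 31.7 ± 2.21% after radiation, against 42.3 ± 1.10% with nab-paclitaxel and 41.7 ± 2.25% in control. HMGA1 dominated the family, and the HMGA share was 82.3 ± 2.94% in the combination, 83.2 ± 0.549% after radiation, 78.8 ± 5.07% with nab-paclitaxel and 77.4 ± 5.84% in control. Control 2 (70.8%) and nab-paclitaxel 1 (73.1%) were lowest. Without them and combination 2 the share averaged 83.99% in the combination, 83.2% after radiation, 81.7% with nab-paclitaxel and 80.7% in control. The median difference in the combination against nab-paclitaxel was -0.53 over the 3 HMGB genes, -0.08 over the 3 HMGN genes and -0.17 over the 2 HMGA genes, beside -0.02 over all tested genes. With nab-paclitaxel against control these medians were 0.44, 0.17 and 0.11, beside 0.04.

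Members have many processed copies in the genome, and 154 named pseudogenes of the 8 genes stand in the table, 13 of them averaging 1 FPKM or more. The most abundant was HMGB1P6 (hg38 chr15:71164770-71165415, minus strand, 646 bases) with a mean of 33.8 FPKM, above HMGB1 itself in all 12 libraries (ratio 1.34 to 1.93). In fragments it was smaller, with 206 to 576 a library, against 1720 to 4093 for HMGB1 over 7723 bases. The stretch below, bases 145 to 234 of the HMGB1 coding sequence (GENCODE 29, transcript HMGB1-206), is shown with the same stretch of HMGB1P6 and of HMGB1P5 (chr3:22381819-22382929), to show the bases by which their reads can be told apart, since it holds 7 of the 9 differences of HMGB1P6. Capitals mark bases that differ from HMGB1.
HMGB1: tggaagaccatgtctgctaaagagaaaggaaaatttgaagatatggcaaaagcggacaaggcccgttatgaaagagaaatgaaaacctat
HMGB1P6: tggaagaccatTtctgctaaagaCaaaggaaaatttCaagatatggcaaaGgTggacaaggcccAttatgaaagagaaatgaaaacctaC
HMGB1P5: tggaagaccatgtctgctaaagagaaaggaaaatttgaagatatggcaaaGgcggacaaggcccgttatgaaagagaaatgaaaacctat
HMGB1P5 differs there at 1 base. Over the whole aligned coding part HMGB1P6 was 98.6% identical (9 mismatches in 642 bases) and HMGB1P5 99.42%. Of the 50-base windows of HMGB1P6, 52.93% occur letter for letter in HMGB1 transcripts, so reads from HMGB1 may be counted there.

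**Figure D5:**
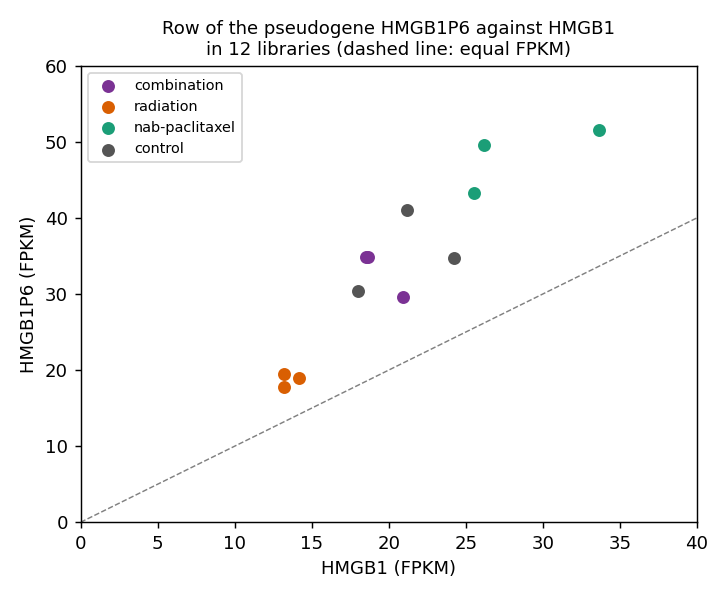
FPKM of the processed pseudogene HMGB1P6 against that of HMGB1 in each of 12 libraries, coloured by group; the dashed line marks equal FPKM. All 12 points lie above the line, the 3 radiation libraries lowest (17.8 to 19.5 FPKM for HMGB1P6) and the 3 nab-paclitaxel libraries highest (43.3 to 51.5 FPKM).

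The directions of HMGB1P6 were those of HMGB1. It had 33.1 ± 3.03 FPKM in the combination, 18.7 ± 0.833 FPKM after radiation, 48.1 ± 4.28 FPKM with nab-paclitaxel and 35.4 ± 5.33 FPKM in control. It fell in the combination against nab-paclitaxel (-0.53 ± 0.11, adjusted p = 0.0283) and rose in the combination against radiation (0.79 ± 0.11, adjusted p = 0.00400) and with nab-paclitaxel against control (0.44 ± 0.11, adjusted p = 0.0375). HMGB1 pseudogenes together took 20.05% of the fragments of HMGB1 and its pseudogenes, while the share was 2.53% for HMGB3, 2.418% for HMGN2, 0.8264% for HMGB2 and 0.09643% for HMGA1. Of the 50-base windows of HMGB1 itself 10.87% also occur in transcripts of other genes. That share was 13.92% for HMGN2, the highest, and 0.3488% for HMGB2, the lowest. Of the other 11 such pseudogenes, HMGB1P10 rose (0.66 ± 0.18, adjusted p = 0.0441) and HMGB1P14 fell (-0.81 ± 0.21, adjusted p = 0.0399) with nab-paclitaxel against control. HMGN1P8 was also called lower there (-1.22 ± 0.25, adjusted p = 0.0174), at 0.457 FPKM against 2.32 FPKM in control. Control was its only group with a mean over 1 FPKM. It met the level for testing only through control, which favours a fall, so this call is no support. HMGB1P5 fell in the combination against nab-paclitaxel (-0.73 ± 0.18, adjusted p = 0.0443).

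The members are also related to each other in sequence. The coding sequences of HMGB1 and HMGB2 are 77.64% identical, those of HMGB1 and HMGB3 74.62% and those of HMGB2 and HMGB3 73.12%. HMGN2 is 74.39% identical to HMGN1 and 74.9% to HMGN3, and HMGA1 is 68.31% identical to HMGA2. HMGN4, a retrotransposed relative of HMGN2 with 86.3% coding identity and no 50-base window in common with it, averaged 39.5 FPKM. It was at 0.03 ± 0.11 in the combination against nab-paclitaxel (adjusted p = 0.926), against -0.63 for HMGN2, and at 0.39 ± 0.11 in the combination against radiation (adjusted p = 0.0512). HMGN5 averaged 1.47 FPKM and passed in no tested comparison, and HMGB4, a testis gene, was listed at 0 in all 12 libraries.

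Genes whose levels most resembled each member over the 12 libraries were ranked by Pearson's r on log2(FPKM + 1) among 7047 protein-coding genes that averaged 5 FPKM or more. These r values were picked as the highest and share the groups and the libraries, so they describe likeness only. For HMGB2 the 8 highest were NQO1 (0.989), KIF2C (0.989), NCL (0.986), UBE2C (0.986), TPX2 (0.985), BIRC5 (0.979), HMGN2 (0.976) and CCNB2 (0.974). KIF2C, UBE2C, TPX2, BIRC5 and CCNB2 act in mitosis, NCL encodes the nucleolar protein nucleolin and NQO1 a quinone reductase. HMGN2 had TPX2 (0.986), NQO1 (0.985) and CYB5B (0.982), and HMGB1 had the splicing factor SRSF7 (0.989), the midbody protein CEP55 (0.987) and the ribonucleotide reductase subunit RRM1 (0.985). HMGB3 was nearest to PA2G4 (0.979), CHCHD4 (0.977) and the chaperonin subunit CCT5 (0.971).

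The other members had different neighbours. HMGA1 was nearest to NKD2 (0.971), ASMTL (0.969) and CANT1 (0.968), and HMGA2 to GRPEL2 (0.992), the splicing regulator MBNL1 (0.987) and the amino acid transporter SLC38A2 (0.983). HMGN1 was nearest to PEX13 (0.951), cytochrome c (CYCS, 0.942) and SNX3 (0.939), and HMGN3 to CD24 (0.914), IFT20 (0.879) and MOSPD1 (0.875). Among the members, HMGB1 and HMGN2 (0.978), HMGB2 and HMGN2 (0.976) and HMGB1 and HMGB2 (0.956) were closest, whereas HMGA1 and HMGA2 ran against each other (-0.784, and -0.525 over the 9 libraries left without the 3 that stood apart).

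Cell cycle genes moved as HMGB2, HMGB1 and HMGN2 did in some comparisons and less so in others. In the combination against nab-paclitaxel 26 of 53 genes of the G2 and M phases fell and 0 rose (median -0.52), and 29 of 42 S phase genes fell and 0 rose (median -0.59). The share of all tested genes that fell there was 2.7%. BIRC5, the survivin gene, fell to 9.69 ± 0.338 FPKM in the combination, against 19.95 ± 2.16 FPKM with nab-paclitaxel (-0.97 ± 0.09, adjusted p = 7.12e-04), and the replication helicase subunit MCM4 to 10.3 ± 0.264 FPKM, against 16.4 ± 0.424 FPKM (-0.62 ± 0.07, adjusted p = 0.00118). With nab-paclitaxel against control 13 of 53 G2 and M phase genes rose and 2 fell (median 0.23), and 7 of 42 S phase genes rose and 1 fell (median 0.10). The share of all tested genes that rose there was 5.41%. Against control, the combination had 17 of 53 G2 and M phase genes that fell and 2 that rose, and 28 of 42 S phase genes that fell and 1 that rose, where 10.6% of all tested genes fell and 12.2% rose. The 2 that fell with nab-paclitaxel were CENPF (-0.54 ± 0.11) and CENPE (-0.55 ± 0.15) of the kinetochore, and the S phase gene was CASP8AP2 (-0.53 ± 0.13). Those that rose in the combination against control were TUBB4B (0.65 ± 0.11), JPT1 (0.35 ± 0.10) and the replication clamp gene PCNA (0.54 ± 0.13). These 6 were named after their values were seen. In the combination against radiation, where HMGB2, HMGB1 and HMGN2 rose, 10 of 53 G2 and M phase genes rose and 0 fell (median 0.23). Of 42 S phase genes 6 rose and 1 fell there (median 0.01), where 4.81% of all tested genes rose. In the combination against control, HMGB1 (-0.11) and HMGN2 (-0.21) did not pass. The part of the cell cycle state in the HMG values was not tested.

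Of 12 tested HMG-box genes without sequence preference 1 fell in the combination against nab-paclitaxel, SSRP1, a subunit of the histone chaperone FACT (-0.40 ± 0.09, adjusted p = 0.0293), and 1 rose with nab-paclitaxel against control, HMG20B (0.64 ± 0.16, adjusted p = 0.0336). Of 9 sequence-specific HMG-box factors, TCF7L2 (-0.49 ± 0.11, adjusted p = 0.0282) and SOX4 (-0.30 ± 0.07, adjusted p = 0.0379) fell and the biliary factor SOX9 rose (0.29 ± 0.07, adjusted p = 0.0463) in the combination against nab-paclitaxel. SOX9 also rose with nab-paclitaxel against control (0.31 ± 0.07, adjusted p = 0.0245). Of all tested genes 2.7% fell and 3.92% changed in the combination against nab-paclitaxel, and 5.41% rose with nab-paclitaxel against control.

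Of 10 tested genes of the SET complex and of the ANP32 and other histone chaperones, 3 rose with nab-paclitaxel against control. These were ANP32B (0.54 ± 0.12, adjusted p = 0.0201), ANP32A (0.39 ± 0.09, adjusted p = 0.0302) and NME1 (0.52 ± 0.13, adjusted p = 0.0307). Of all tested genes 5.41% rose there. ANP32B fell in the combination against nab-paclitaxel (-0.48 ± 0.12, adjusted p = 0.0443), as HMGB1 and HMGB2 did. In the combination against radiation 4 of the 10 rose, where 4.81% of all tested genes rose. They were ANP32B (0.71 ± 0.12), ANP32A (0.46 ± 0.09), NUCKS1 (0.39 ± 0.10) and the FACT subunit SUPT16H (0.26 ± 0.07), the last 2 named after their values were seen. Of 3 linker histone H1 genes, the counterparts of HMGN on the nucleosome, HIST1H1C rose with nab-paclitaxel (0.68 ± 0.12, adjusted p = 0.00770). In the combination against nab-paclitaxel 0 of the 3 changed, where 3.92% of all tested genes changed.

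Of 14 receptors, partners and export factors of HMGB1 as a signal, 6 reached the level for testing. Among them 1 rose with nab-paclitaxel against control, the poly(ADP-ribose) polymerase PARP1, which modifies HMGB1 (0.41 ± 0.09, adjusted p = 0.0246), and 0 changed in the combination against nab-paclitaxel. Of all tested genes 5.41% rose in the first comparison and 3.92% changed in the second. Of 5 tested let-7 and HMGA2-linked genes 0 rose and 3 fell in the combination against control, where HMGA2 and 10.6% of all tested genes fell too. These were the RNA-binding protein genes IGF2BP3 (-0.47 ± 0.11, adjusted p = 0.0114) and IGF2BP2 (-0.24 ± 0.07, adjusted p = 0.0350), and DIS3L2 (-0.31 ± 0.09, adjusted p = 0.0276), a nuclease that degrades let-7 precursors, named after their values were seen.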

How the data were processed

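Messenger RNA was measured by RNA-seq in 12 libraries of TFK1 cells. The authors deposited FPKM per gene, per the file headers, for 58735 genes. Per the submitters' processing notes, reads were placed on hg38. For the aligner, gene counting and strand, the version or setting was not given in the sources used here. All 58735 gene identifiers are in GENCODE 29. Low values were whole multiples of 1 fragment within a tolerance of 0.05, which gave 14840283 to 17992242 fragments a library. The scaling total behind the deposited FPKM was not this fragment total. In every library it equalled the median-of-ratios size factor times the geometric mean of the fragment totals. For nab-paclitaxel 1 it was 15744191, against 17080792 fragments. The median-of-ratios alternative repeated such scaling over the tested genes only.

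The members and gene lists were chosen with earlier results of these data known. The 13609 genes that averaged 1 FPKM or more were fitted on log2(FPKM + 1) with limma 3.58.1 in R 4.3.3, with a mean-variance trend, 4 groups in 1 fit and p-values adjusted by Benjamini-Hochberg over all genes tested, at a threshold of 0.05. Fold changes on this scale understate those of low genes. The fit was tested on simulated data. Named beside the members were the genes most correlated with each, up to 3 genes of each list with the smallest p in the combination against nab-paclitaxel and in nab-paclitaxel against control, family genes HMGB4, HMGN4 and HMGN5, and pseudogenes of members that averaged 1 FPKM or more. Genes named outside this rule are marked as named after their values were seen. No main test paired the libraries, and the replicate number as a block was an alternative only. Deviations of same-numbered libraries correlated positively in every number only for the combination and control (r = 0.233, 0.543 and 0.172). The differently numbered control 2 and nab-paclitaxel 1 correlated at 0.463, so these r values do not show a pairing. Alternatives varied the pseudocount, filter, scaling, model, block and libraries. Centring by GC content, with and without the block, was added after seeing the data. The 3 libraries left out together were singled out from these same data. Sequences were handled in Python 3.11.15 with biopython 1.88, and figures drawn with matplotlib 3.10.9.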

Additional observations from a re-analysis of the deposited data

How the results depend on the processing

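Counts of members past the threshold moved by over 1.5 times under these settings. With nab-paclitaxel against control the count of 3 became 1 with no filter, 1 with quantile normalization, 0 when only the groups compared were fitted, 6 centred by GC content and 5 with the replicate block and GC centring. For the combination against control the 3 became 1 with no filter and 5 without control 2, nab-paclitaxel 1 and combination 2. For the combination against radiation the 4 became 2 with no filter and 2 with quantile normalization, and in the combination against nab-paclitaxel the 3 became 1 when only the groups compared were fitted. Leaving out 1 library gave 1 to 3, 1 to 3, 1 to 4 and 2 to 3 in these comparisons. Over all genes, 807 calls in radiation against control, 1200 in nab-paclitaxel against control, 3111 in the combination against control, 1055 against radiation and 533 against nab-paclitaxel became 2086, 3038, 5132, 2873 and 1625 with GC centring. Calls over all genes moved in the same direction as the members in the other settings too. With nab-paclitaxel against control they were 579 with no filter, 789 with quantile normalization and 8 when only the groups compared were fitted. For the combination against control they were 2477 with no filter and 5049 without the 3 libraries. Against radiation they were 577 with no filter and 861 with quantile normalization. Against nab-paclitaxel they were 93 when only the groups compared were fitted. The cause was not tested.

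With the replicate block HMGB3 in the combination against control was lost (adjusted p = 0.0694). The block also lost HMGB2 with nab-paclitaxel against control (0.0560), HMGB1 in the combination against radiation (0.0640) and HMGB1 in the combination against nab-paclitaxel (0.0716). In those pairs of groups, same-numbered libraries did not correlate positively in every number.

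Signs turned for values near 0. In radiation against control, HMGN1 (-0.01) turned positive in 9 of 27 alternatives. Under quantile normalization HMGN3 with nab-paclitaxel against control was -0.077, HMGN1 in the combination was -0.0023 against control and -0.071 against radiation, and HMGA1 in the combination against nab-paclitaxel was 0.29 (0.013 with GC centring, with or without the block). The interaction of HMGN2 was 0.00094 with a pseudocount of 0.1, 0.013 with quantile normalization, 0.0027 with voom, 0.0061 with pseudogenes summed and 0.058 without the 3 libraries that stood apart. That of HMGN1 was 0.012 with pseudogenes summed, and that of HMGA2 -0.023 without those 3 libraries. Leaving out 1 library gave -0.014 to 0.20 for HMGN3 with nab-paclitaxel against control, -0.012 to 0.16 for HMGN1 in the combination against control, -0.17 to 0.13 for HMGA1 and -0.14 to 0.0028 for HMGN1 against nab-paclitaxel, and interactions of -0.074 to 0.10 for HMGN2, -0.14 to 0.029 for HMGN1, -0.026 to 0.20 for HMGB1 and -0.022 to 0.19 for HMGA2. Planned count-model tests and trimmed-mean scaling were not run. Member genes had from 479 fragments (HMGN3) to 40339 fragments (HMGA1) a library, and the precision of each value was also set by the spread of 3 libraries a group.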
